A study of Mus musculus with 55 samples.

Results

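The nuclear lamina and envelope genes described here are 10 genes chosen by name, Lmna, Lmnb1, Lmnb2, Lbr, Emd, Banf1, Lemd3, Sun1, Sun2 and Tmpo. All 10 were listed in each of the 2 pre-mRNA tables, among 9911 genes in CCNA-GFP cells and 10237 genes in CTCF-AID cells. Pre-mRNA was measured by RNA-seq as mouse embryonic stem (ES) cells left mitosis, to ask how fast genes resume transcription and whether CTCF, an architectural DNA-binding protein, has a part in it. Both lines derive from E14Tg2a cells and were grown in serum with LIF. CCNA-GFP cells carry a cyclin A-GFP reporter of the cell cycle and gave 19 libraries. They are 3 mitotic and 3 asynchronous libraries, 2 for every release time among 20, 30, 40, 60, 90 and 120 min, and 1 for 50 min. CTCF-AID cells, which are 1 clone (#EN52.9.1), carry CTCF fused to an auxin-inducible degron and gave 36 libraries, 18 without and 18 with the auxin IAA. Each CTCF-AID arm held 3 mitotic and 3 asynchronous libraries and 2 for every release time among 20, 40, 50, 60, 90 and 120 min. All synchronised cells, in both lines and both arms, had received RO-3306 at 10 µM for 4 h, which blocks CDK1, then nocodazole at 50 ng/ml for 4 h, which blocks the spindle. Mitotic cells were then shaken off and released. In the treated arm IAA was given at 0.5 mM from 2 h before release and kept on, and the asynchronous cells received it for 4 h.

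The lamina is a mesh of lamin filaments under the inner nuclear membrane. Lmna encodes the A-type lamins A and C, and Lmnb1 and Lmnb2 encode the B-type lamins. Lbr encodes the lamin B receptor, a membrane protein that also reduces sterols. Emd (emerin), Lemd3 (MAN1) and Tmpo (LAP2) encode proteins with a LEM domain, which binds the small DNA-bridging protein encoded by Banf1. Sun1 and Sun2 encode the inner nuclear membrane part of the LINC complex, which couples the nucleus to the cytoskeleton. The envelope is taken apart when cells enter mitosis and is rebuilt around the chromosomes as they exit, which is the period sampled here. In bulk samples such as these, fewer cells of a kind and less RNA per cell cannot be told apart. Pre-mRNA follows ongoing transcription rather than the stock of mRNA or protein, neither of which was analysed here.

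The promoters of 3 members are shown, since in CTCF-AID cells at 120 min their pre-mRNA lay on opposite sides of the asynchronous level, Emd above it and Lmnb2 and Sun2 below. They are the 250 bases before the start site in RefSeq on GRCm38.p6, written 5′ to 3′ on the strand of the gene, with CCAAT, on either strand, in capitals. Emd lies on the plus strand of chromosome X and its stretch is chrX:74254437-74254686. Lmnb2 lies on the minus strand of chromosome 10 (chr10:80918246-80918495) and Sun2 on the minus strand of chromosome 15 (chr15:79742537-79742786).
Emd: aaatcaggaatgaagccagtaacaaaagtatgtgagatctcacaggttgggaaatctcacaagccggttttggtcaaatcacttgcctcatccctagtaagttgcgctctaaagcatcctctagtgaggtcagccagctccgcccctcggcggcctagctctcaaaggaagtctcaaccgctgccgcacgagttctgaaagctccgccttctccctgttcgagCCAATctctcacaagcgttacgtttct
Lmnb2: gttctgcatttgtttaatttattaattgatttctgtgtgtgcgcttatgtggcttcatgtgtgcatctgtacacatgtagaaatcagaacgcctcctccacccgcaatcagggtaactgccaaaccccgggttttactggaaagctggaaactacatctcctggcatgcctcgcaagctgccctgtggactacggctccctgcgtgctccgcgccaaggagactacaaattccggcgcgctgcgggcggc
Sun2: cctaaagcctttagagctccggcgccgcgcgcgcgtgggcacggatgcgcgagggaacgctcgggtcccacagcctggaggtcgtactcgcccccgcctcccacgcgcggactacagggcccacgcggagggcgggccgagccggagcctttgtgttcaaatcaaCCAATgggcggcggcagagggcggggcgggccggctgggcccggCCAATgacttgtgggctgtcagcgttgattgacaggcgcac

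Emd held CCAAT once, centred 25 bases before the start, Sun2 held it 83 and 39 bases before the start, and Lmnb2 held none. The set of RefSeq promoters used here held 14, of 300 bases from 250 before to 50 after the start, for 9 of the 10 members. It held none for Lmnb1. On either strand, CCAAT was present in 9 of these 14 promoters, against 37.4% of all 32851 promoters in that set. The GC box GGGCGG was present in 10 of the 14 (35.7% of all promoters), TTTGAA in 3 (17.9%), and the E-box CACGTG in 0 (7.15%). The core of the CTCF motif, CCANNAGNNGGC, was in 0 of them too (2.43% of all promoters), which says only that these letters are not in these windows. In Gencode vM21 the genes run from 2.53 kb (Banf1) and 6.86 kb (Emd) to 49.2 kb (Sun1) and 55.9 kb (Lemd3), with a median of 22.6 kb over the CCNA-GFP table. Emd shares its strand with the pseudogene Gm14686, which lies inside it, so reads in that stretch could be split between them, and Lbr and Lemd3 each share theirs with a gene model inside them (Gm26004 and Gm23632). Banf1 overlaps Eif1ad on the other strand, and the libraries were stranded.

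Values are in TPM, an abundance per length of transcript that keeps no read counts, so the depth behind a value is unknown. The sum over the listed genes was 13747 to 17245 TPM in the mitotic and 30992 to 42576 TPM in the 60 min libraries of CCNA-GFP cells, and most genes moved together and each member is set beside the median of all genes. Whether the 2 tables share a scale is not known here, so the lines are described side by side with no test between them. Of 9 ES cell markers 8 were listed, Sox2 being the other, and none of the 4 endoderm markers was. Of 4 mesoderm and neuroectoderm markers 3 were listed in each line, Sox1 being the other. At 60 min these summed to 2.02 to 3.36 TPM in CCNA-GFP and 1.82 to 6.26 TPM in CTCF-AID cells without IAA. The ES cell markers summed to 73.8 to 105.2 and 87.9 to 105.5 TPM there. Of 6 fibroblast or feeder markers 2 (Vim and Fn1) were listed in CCNA-GFP and 4 in CTCF-AID cells. Ctcf pre-mRNA does not check the depletion, since IAA acts on the protein.

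In asynchronous CCNA-GFP cells the B-type lamin Lmnb1 and the LEM gene Tmpo had the highest levels of the family and Lmna and Sun2 the lowest. Lmnb1 stood at 9.22 ± 2.36 TPM (SD, n = 3), Tmpo at 6.76 ± 1.47, Lbr at 4.05 ± 0.622 and Sun1 at 3.64 ± 1.33. Below them came Lmnb2 at 3.00 ± 1.22 TPM, Lemd3 at 2.59 ± 0.804, Emd at 2.40 ± 0.383 and Banf1 at 1.87 ± 0.0697, then Lmna at 0.976 ± 0.257 and Sun2 at 0.825 ± 0.337. The ranges over the 3 libraries of neighbours in this order overlapped at every step but those from Tmpo to Lbr, from Emd to Banf1 and from Banf1 to Lmna. In CTCF-AID cells without IAA, Lbr was at the level of Lmnb1 in asynchronous cells, at 7.80 ± 0.926 against 7.68 ± 1.92 TPM. In mitotic cells Lbr read 1.64, 1.99 and 2.00 TPM in CCNA-GFP and 5.92, 5.30 and 5.33 TPM in CTCF-AID cells without IAA, a gap seen side by side and not tested.

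**Figure D1:**
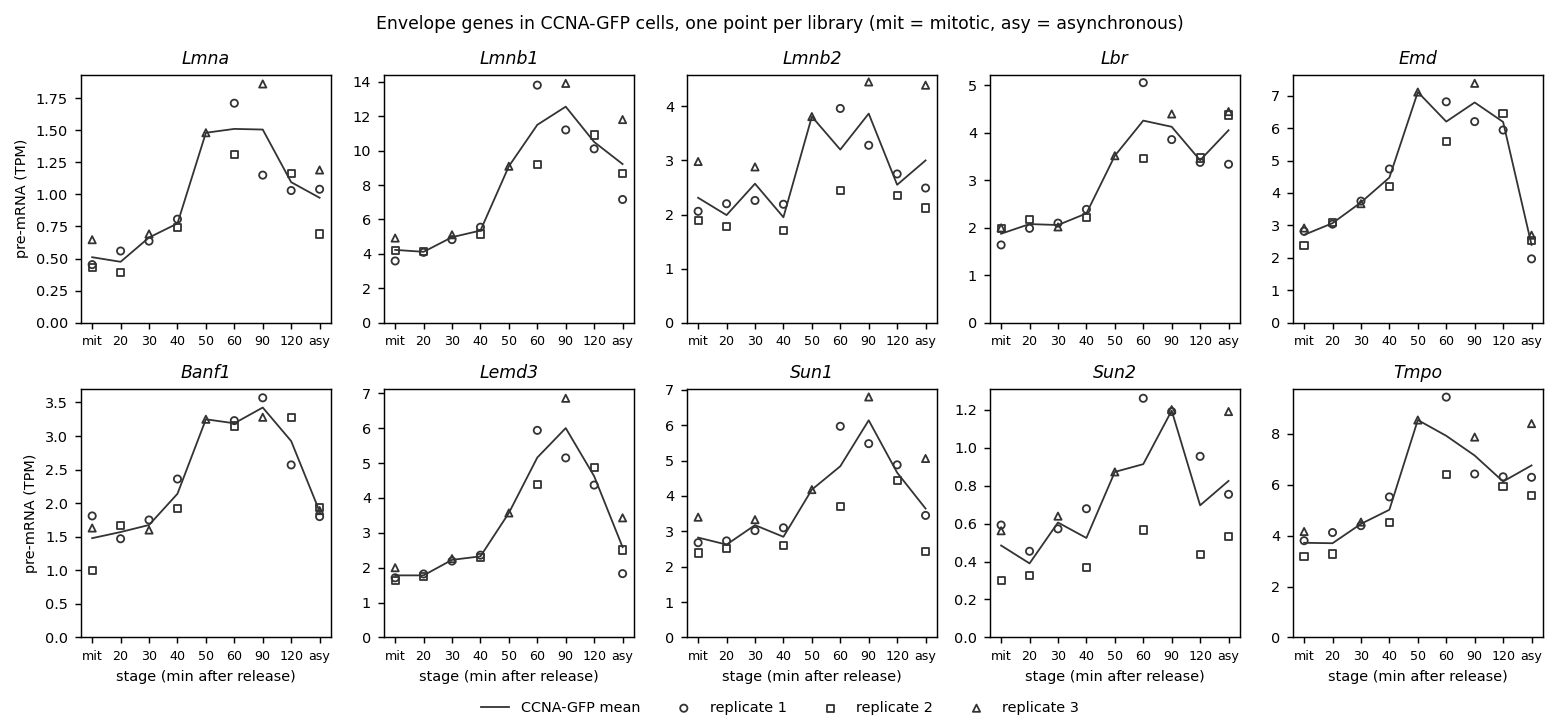
Pre-mRNA level (TPM, vertical axis) of the 10 members in CCNA-GFP cells at each stage (horizontal axis, equally spaced), with a point per library, its shape giving the replicate, and a line through the means. Emd lies at 5.59 to 7.38 TPM from 50 to 120 min and at 1.97 to 2.70 TPM in asynchronous cells, while Lmnb1 and Lbr remain high there.

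In CCNA-GFP cells no member was called against mitosis at 20 or 30 min, and 6 were called higher at 40 min. By 60 min all 10 members were called higher than in mitosis. Scaling libraries to the same total takes out a rise shared by most genes, and 7 members then lose this direction. A call here is an adjusted p under 0.05 in limma over all genes of the table. Neither 20 min (0% of all genes called higher) nor 30 min (0.303%) gave a called member, and at an unadjusted p under 0.05 there were 0 and 1 members among 253 and 1135 genes. At 40 min 6 of 10 were called, against 49.3% of all genes. They were Emd (log2 fold change 0.61 ± 0.13, SE), Tmpo (0.45 ± 0.13), Lmnb1 (0.39 ± 0.15), Banf1 (0.36 ± 0.13), Lemd3 (0.35 ± 0.14) and Lmna (0.32 ± 0.10). Leaving out a replicate can leave a stage with 1 library, which the fit then takes to vary like the other groups. The count at 40 min was 1, 3 and 4 without replicate 1, 2 and 3, and Emd was the 1 member called without any of the 3. All 10 were called at 60, 90 and 120 min, when 88.3%, 89.1% and 90.2% of all genes were, so the share of members called is close to that of all genes. The calls for Lmnb2 were lost without replicate 1 at each of these 3 times (0.33, 0.37 and 0.29 on the log2 scale), and at 120 min also without replicate 2 (0.31) or 3 (0.25), and that for Sun2 at 120 min without replicate 1 (0.21).

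The sizes of the rise set the members apart more than the calls did. Lmnb1 read 3.59, 4.19 and 4.92 TPM in mitosis, 13.8 and 9.19 TPM at 60 min and 11.2 and 13.9 TPM at 90 min, with no overlap. Its change at 60 min was 1.34 ± 0.15 on the log2 scale (limma adjusted p = 8.1e-08). It lay at the 84.4th percentile of all genes, 61.4 to 92.1 over the 9 settings tried, and at the 92.3rd at 120 min. Lemd3 followed with 1.23 ± 0.14 at 60 min (78.9th percentile), and Emd and Tmpo each with 1.00 ± 0.13. Lmnb2 (0.50 ± 0.12) and Sun2 (0.43 ± 0.09) had the smallest changes on this scale, at the 29.9th and 24.2nd percentiles, and the median of all genes was 0.79. The order depends on the pseudocount, since Lmna and Sun2 are low. In mean TPM Lmna was 2.96-fold its mitotic level, Lemd3 2.90-fold, Lmnb1 2.72-fold, Emd, Lbr, Banf1 and Tmpo 2.13- to 2.29-fold, Sun2 1.88-fold, Sun1 1.71-fold and Lmnb2 1.38-fold. The levels of Lmnb2 overlapped between stages, at 2.06, 1.89 and 2.98 TPM in mitosis and 3.96 and 2.44 TPM at 60 min. Pairs of libraries of the same replicate were each higher at 60 min, for all 10 members.

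The direction against mitosis depended on how libraries were scaled. Scaling to the same total sets the sums equal, so a rise shared by most listed genes is removed by construction. It shows only where members stood relative to other genes. Whether the shared rise was in the cells was not tested. With every library scaled to the same total, the median of all genes at 60 min went from 0.79 to 0.02, Lmna, Lmnb1 and Lemd3 were at 0.18, 0.16 and 0.22, and the other 7 members were below 0, from -0.50 (Lmnb2) to -0.09 (Emd). Over all genes, 36.4% were then called higher and 33.3% lower, against 88.3% and 0.515% as deposited. The same scaling took the median in CTCF-AID cells without IAA from 0.63 to 0.06 and put Lmnb2, Lbr, Banf1, Sun1 and Tmpo below 0. There 39.4% of genes were called higher and 31.1% lower, against 84.8% and 2.70% as deposited.

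**Figure D2:**
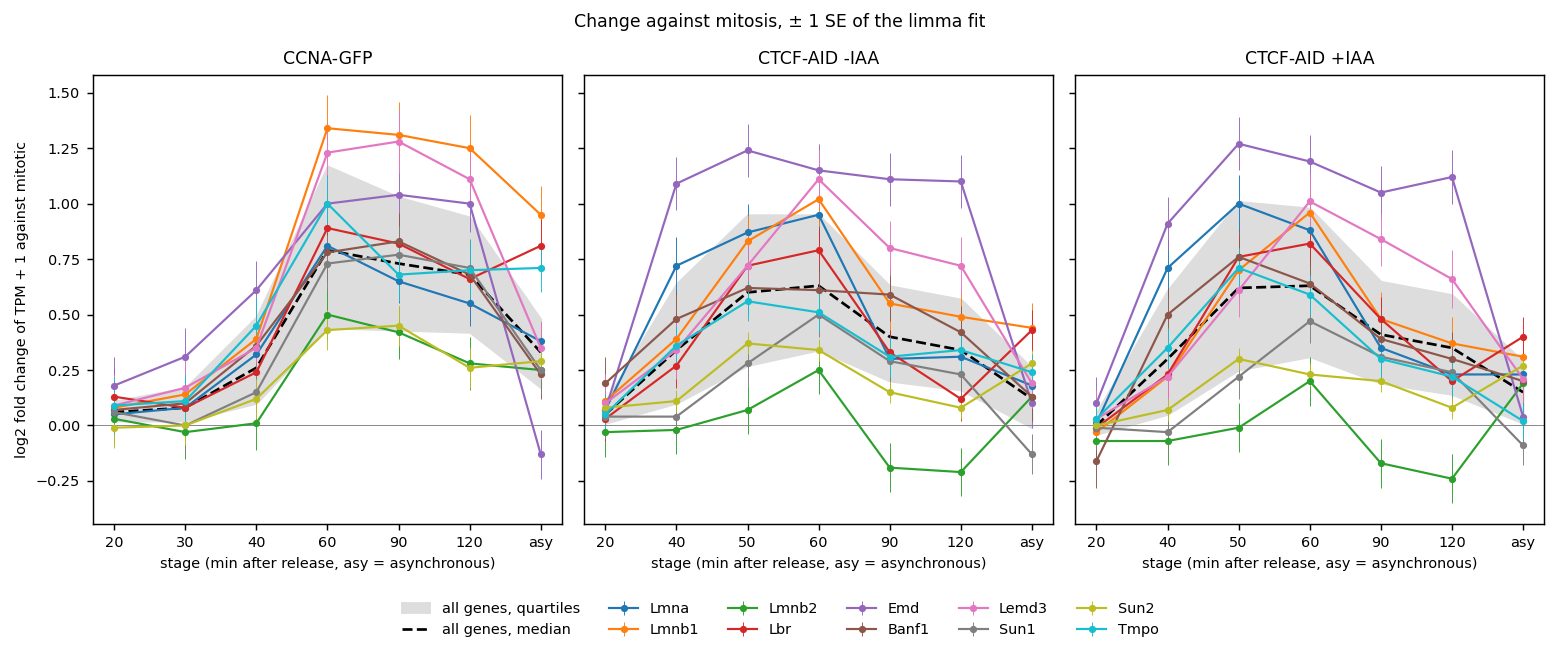
Log2 fold change of TPM + 1 against mitosis (vertical axis) at each stage after release and in asynchronous cells (horizontal axis, equally spaced), for each member ± 1 SE, in CCNA-GFP and both arms of CTCF-AID cells. The dashed line and grey band are the median and quartiles of all genes. Emd stays above the band at 90 and 120 min in both CTCF-AID arms, and Lmnb2 lies below it there.

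In CTCF-AID cells without IAA at 20 min no member and 0% of genes were called higher, with 0 members and 397 genes at an unadjusted p under 0.05. Scaled to the same total, fewer members were called higher at each later stage and others were called lower, with the counts given under the processing. As deposited, 7, 9 and 10 members were called higher at 40, 50 and 60 min, against 63.3%, 79.1% and 84.8% of all genes. At 90 min it was 9 members (74.8% of all genes) and at 120 min 7 (69.6%). These last counts fell to 4 at 90 min without replicate 3 and to 2 at 120 min without replicate 2. Lmna, which encodes the A-type lamins, was first called higher than mitosis at 40 min and had its highest mean at 60 min. It read 0.500, 0.317 and 0.414 TPM in mitosis, 1.27 and 1.33 TPM at 40 min, 1.35 and 2.07 TPM at 60 min and 0.662 and 0.783 TPM at 120 min. All 40 to 60 min libraries of Lmna were above every mitotic, asynchronous and 120 min library. The change at 40 min was 0.72 ± 0.13 (79.7th percentile), and from 60 to 120 min Lmna fell by 0.64 on the log2 scale (SE 0.14, adjusted p = 4.8e-04).

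Emd had the largest change of the family at 90 and 120 min in this line. At 40 min it led on the log2(TPM + 1) scale, while with a pseudocount of 0.1 Lmna (1.51) was above Emd (1.45) without IAA, and with IAA (1.48 against 1.23). Without IAA Emd read 1.81, 1.34 and 1.66 TPM in mitosis and 2.01 and 1.34 TPM at 20 min, then 4.80 and 3.98 TPM at 40 min, 4.89 and 5.72 TPM at 50 min and 4.45 and 4.80 TPM at 60 min. It was still at 4.06 and 4.84 TPM at 120 min, and asynchronous cells had 1.95, 1.61 and 1.79 TPM. All 10 libraries from 40 to 120 min were thus above every mitotic, 20 min and asynchronous library. The change against mitosis was 1.09 ± 0.12 at 40 min (92.4th percentile) and 1.10 ± 0.12 at 120 min (96.0th), and that from 60 to 120 min was -0.05 ± 0.13, with a median of -0.27 for all genes.

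Without IAA the B-type lamin Lmnb2 read 2.37, 1.90 and 2.87 TPM in mitosis, 2.90 and 2.46 TPM at 60 min and 1.62 and 1.73 TPM at 120 min, so mitotic and 60 min libraries overlapped and both 120 min libraries were below all of them. It was called higher only at 60 min among the stages tested (0.25 ± 0.11, adjusted p = 0.038, 18.5th percentile), a call lost without any single replicate (0.33, 0.22 and 0.23 without replicates 1, 2 and 3). With IAA it was not called (0.20 ± 0.11, adjusted p = 0.088). At 120 min the change against mitosis was -0.21 ± 0.11 (adjusted p = 0.084) without IAA. With IAA it was -0.24 ± 0.11 (adjusted p = 0.047), the only member called lower, when 4.42% of all genes were. That call did not hold without replicate 1, where the value was 0.01.

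With IAA the counts were within 3 members of those without it at each stage. At 20 min 0 members and 0% of genes were called, with 0 members and 149 genes at an unadjusted p under 0.05. At 40, 50, 60, 90 and 120 min 4, 9, 9, 9 and 6 members were called higher, against 58.7%, 78.2%, 82.2%, 73.8% and 68.2% of all genes. These shares are for values as deposited. Scaled to the same total, 2, 2, 3, 2 and 2 members were higher and 7, 4, 3, 3 and 5 lower. The counts were 4 at 90 min without replicate 3, and 1 and 3 at 120 min without replicates 2 and 3. Emd changed by 0.91 ± 0.12 at 40 min and 1.12 ± 0.12 at 120 min (95.1st percentile), and Lmna by 1.00 ± 0.13 at 50 min.

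**Figure D3:**
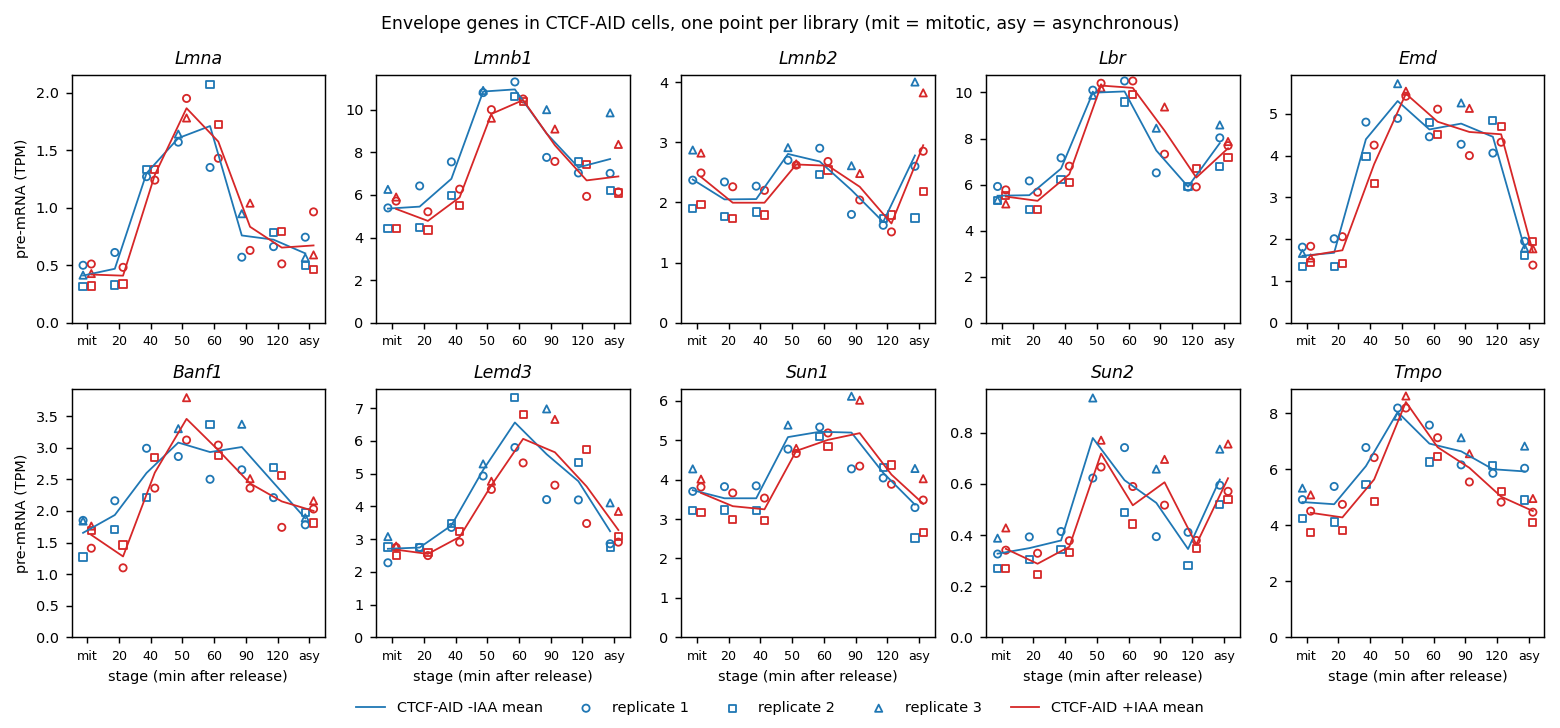
Pre-mRNA level (TPM, vertical axis) of the 10 members in CTCF-AID cells at each stage (horizontal axis, equally spaced), without (blue) and with IAA (red), a point per library, its shape giving the replicate, and a line through the means. The arms track each other, and for Tmpo the asynchronous libraries with IAA lie at 4.11 to 4.96 TPM and those without at 4.91 to 6.83 TPM.

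From 60 to 120 min the members parted. In CCNA-GFP cells none was called lower, when 28.5% of all genes were, and 2 of 10 passed an unadjusted p under 0.05. Without replicate 2 the count was 1. In CTCF-AID cells 7 members were called lower without IAA (53.1% of all genes) and 8 with IAA (50.8%). Without IAA the largest falls on the log2(TPM + 1) scale were those of Lbr (-0.67 ± 0.11, adjusted p = 2.4e-05) and the lamins Lmna (-0.64 ± 0.14), Lmnb1 (-0.53 ± 0.13) and Lmnb2 (-0.46 ± 0.12), all below the median of all genes. Lemd3 (-0.39 ± 0.14), Sun1 and Sun2 (each -0.26) were nearer to it. With a pseudocount of 0.1 the order was another, with Lmna at -1.11, Lbr at -0.75, Sun2 at -0.68, Lmnb2 at -0.64 and Lmnb1 at -0.58. Emd, Banf1 (-0.18 ± 0.13) and Tmpo (-0.17 ± 0.10) were not called. With IAA, Tmpo (-0.37 ± 0.10) and Banf1 (-0.34 ± 0.13) were called and Sun1 (-0.23 ± 0.10, adjusted p = 0.064) was not. Without replicate 1 the count with IAA was 3, and the calls for Lmnb2 were lost in both arms (-0.34 in each). With libraries scaled to the same total, the median of all genes was -0.01 and only Lmna, Lmnb1 and Lbr were called lower without IAA, while Emd was at 0.27, Tmpo at 0.18 and Sun1 at 0.07.

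Asynchronous cells divide the family differently. Against mitosis, 7 members were higher in asynchronous CCNA-GFP cells (70.4% of all genes), 4 in CTCF-AID cells without IAA (34.3%) and 3 with IAA (40.9%). Those shares are for values as deposited. Scaling to the same total left 3, 3 and 2 members higher and made 3, 1 and 2 lower. In CCNA-GFP cells 24.8% of all genes were then called higher and 20.3% lower. With libraries divided by their factor 9, 9 and 8 members were higher. Leaving out replicate 3 gave 4, 2 and 2, with the calls of Lmnb1 lost in both CTCF-AID arms (0.37 and 0.24), and leaving out replicate 1 gave 5 with IAA. Lmnb1 and Lbr led in CCNA-GFP cells, with 0.95 ± 0.13 and 0.81 ± 0.12 (98.2nd and 96.2nd percentiles), followed by Tmpo with 0.71 ± 0.11. Lbr read 3.34, 4.38 and 4.45 TPM in asynchronous and 1.64, 1.99 and 2.00 TPM in mitotic cells, and 3.38 and 3.47 TPM at 120 min. In CTCF-AID cells without IAA the calls were Lmnb1 (0.44 ± 0.11), Lbr (0.43 ± 0.09), Sun2 (0.28 ± 0.05) and Tmpo (0.24 ± 0.08). In mean TPM Sun2 was first there, at 1.88-fold its mitotic level, against 1.43-fold for Lmnb1 and 1.41-fold for Lbr. Emd was at -0.13 ± 0.11 in CCNA-GFP cells (adjusted p = 0.29, 3.48th percentile) and at 0.10 ± 0.11 and 0.04 ± 0.11 without and with IAA, none of them called.

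Set against asynchronous cells, the 60 min level was called higher for 7 members in CCNA-GFP cells (67.0% of all genes), and for 8 without IAA (75.2%) and 8 with IAA (72.2%) in CTCF-AID cells. The count in CCNA-GFP cells was 4 without replicate 1. With libraries scaled to the same total, 2 members were higher and 5 lower in CCNA-GFP cells, 3 and 4 without IAA and 2 and 3 with IAA. The shares of all genes given before are not for this scaling. As deposited, Lbr, Lmnb2 and Sun2 were the members not called in CCNA-GFP cells, and Lmnb2 and Sun2 those not called in either CTCF-AID arm. By 120 min 4 members were still higher in CCNA-GFP cells (63.4% of all genes), Emd, Lemd3, Banf1 and Sun1. The same 4 were higher without IAA (51.0%), and Emd, Lemd3 and Sun1 with IAA (47.2%). The counts fell to 2, 1 and 1 without replicate 2 and were 5 in each CTCF-AID arm without replicate 1. As deposited no member was called lower in CCNA-GFP cells (5.86% of all genes), where 4 members in either direction passed an unadjusted p under 0.05 in limma. Lmnb2, Lbr and Sun2 were lower without IAA (7.25%), and Lmnb2 and Sun2 with IAA (8.43%). Scaled to the same total, 5, 5 and 4 members were lower in CCNA-GFP, without IAA and with IAA, as were 24.9%, 27.7% and 29.2% of all genes.

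Emd stood furthest apart at 120 min. It was above asynchronous cells by 1.13 ± 0.13 in CCNA-GFP (adjusted p = 6.7e-07), 1.00 ± 0.12 without IAA (4.7e-07) and 1.07 ± 0.12 with IAA (2.0e-07), at the 97.3rd, 96.3rd and 97.1st percentiles. In mean TPM the level was 2.58-, 2.49- and 2.66-fold that of asynchronous cells. In CCNA-GFP cells Emd read 5.94 and 6.44 TPM at 120 min and 1.97, 2.53 and 2.70 TPM in asynchronous cells, with no overlap. Over the 9 settings tried, same-total scaling included, Emd was called each time and its percentile was 93.1 to 97.6 in CCNA-GFP, 93.1 to 96.9 without IAA and 94.9 to 97.7 with IAA. Lemd3, the other inner membrane LEM gene raised at this time, was at 0.76 ± 0.14, 0.53 ± 0.13 and 0.44 ± 0.13, and its calls in the CTCF-AID arms were lost without replicate 2 (0.37 and 0.18).

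Lmnb2, Lbr and Sun2 were the lowest members in the CTCF-AID arms. Lmnb2 was below asynchronous cells by -0.34 ± 0.11 without IAA (adjusted p = 0.011, 3.56th percentile) and -0.44 ± 0.11 with IAA (adjusted p = 0.0017, 2.60th percentile), and at 0.03 ± 0.12 in CCNA-GFP. Asynchronous cells without IAA had 2.60, 1.74 and 4.00 TPM and the 120 min libraries 1.62 and 1.73 TPM, so the nearest libraries were 0.01 TPM apart and replicate 3 of the asynchronous cells was high. The call was lost without replicate 1 (-0.16) or 3 (-0.23) without IAA, and without replicate 1 (-0.21) with IAA. Over the 9 settings tried Lmnb2 was called in 6 without IAA and in 8 with IAA. Sun2 was at -0.21 ± 0.05 and -0.19 ± 0.05, both calls lost without replicate 2 (-0.16 and -0.19). It was called in 7 of 8 settings without IAA and 6 of 8 with IAA. Without IAA it read 0.521 to 0.736 TPM in asynchronous cells and 0.411 and 0.280 TPM at 120 min. With a pseudocount of 0.1 Sun2 was below Lmnb2 without IAA (-0.55 against -0.46) and above it with IAA (-0.48 against -0.61). Lbr was at -0.31 ± 0.10 (adjusted p = 0.013) without IAA, a call lost without replicate 1 (-0.27), and -0.20 ± 0.10 (adjusted p = 0.0999) with IAA.

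**Figure D4:**
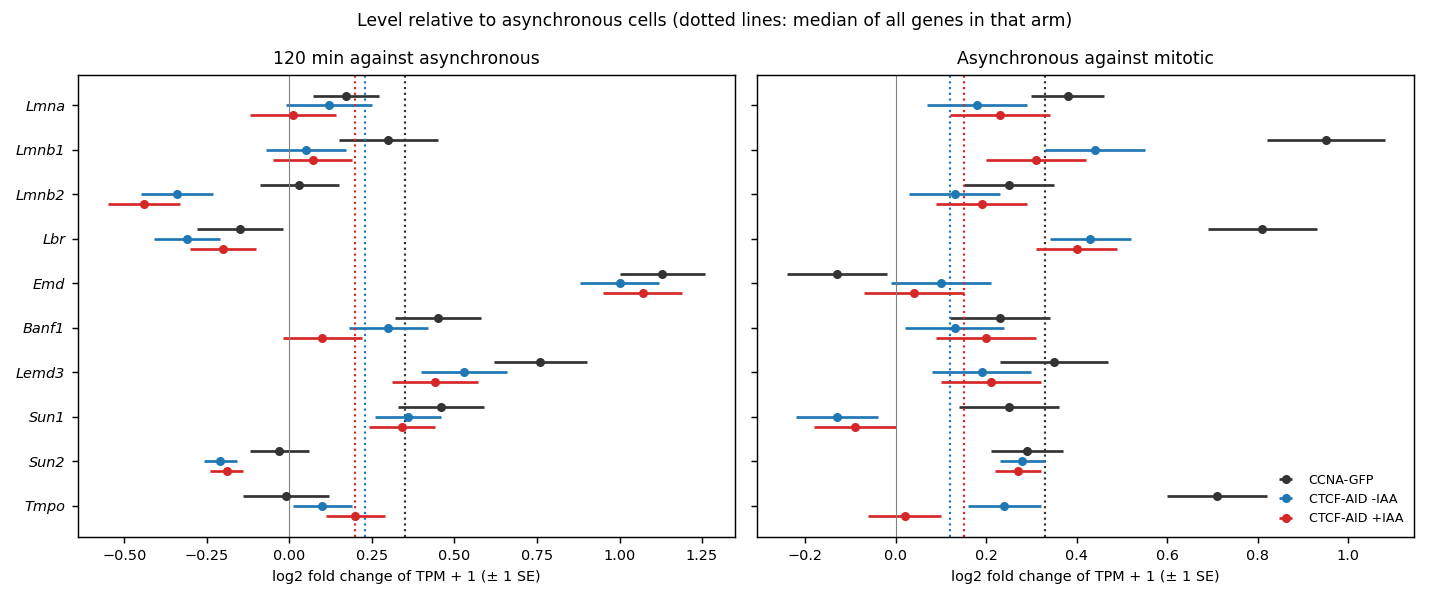
Log2 fold change of TPM + 1 (horizontal axis, ± 1 SE) for each member (vertical axis), at 120 min against asynchronous cells (left) and in asynchronous against mitotic cells (right), in the 3 arms. Dotted lines mark the median of all genes in each arm. Emd is at 1.00 to 1.13 in the left panel, and Lmnb1 and Lbr are highest in the right panel in each arm on this scale.

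As a description of how the profiles relate, log2(TPM + 1) minus the library median was correlated between genes over the 19 CCNA-GFP and the 36 CTCF-AID libraries. The libraries share stages and scaling, so r is given with no p. On this scale Lmnb2 and Sun2 were the closest pair of members, with r = 0.80 and 0.85. For Emd, r was below 0 in both tables with Lmnb2 (-0.44 and -0.91), Sun2 (-0.47 and -0.89), Lbr (-0.81 and -0.56), Tmpo (-0.68 and -0.28), Lmnb1 (-0.39 and -0.17) and Sun1 (-0.20 and -0.43). Sun2 is low and the pseudocount of 1 flattens its profile, so its r may rest on the scale. Another pseudocount was not tried for r. In mean TPM at 60 min Sun2 was 1.88-fold its mitotic level in CCNA-GFP cells and 1.88-fold without IAA. Lmnb2 was 1.38-fold and 1.12-fold. The median r over the 45 pairs of members was -0.11 and -0.04. Ranked by the mean of the 2 values of r over 6603 genes, the genes most like Emd were Tef (0.92), Dnajc9 (0.91) and Slc4a11 (0.90). Those most like Lmnb2 were Hspbap1 (0.91), Gfm2 (0.90) and Tnk2 (0.89), those most like Lmnb1 were Tcof1 (0.87), Uchl3 (0.85) and Prkaa1 (0.83), and those most like Sun1 were Wapl (0.91), Afg3l2 (0.89) and Tnpo3 (0.87). Setd3 (0.90) and Pdzd8 (0.89) were close to Lemd3, and Zfp512 (0.79), 2610318N02Rik (0.79) and Arhgap12 (0.78) to Lbr. Ranked over 6604 genes, Etfa (0.91), Pign (0.90) and Gm14326 (0.90) were closest to Sun2, and Ntan1 (0.76), Vps4a (0.70) and F2rl1 (0.67) to Lmna. Tmpo was most like L1td1 (0.77), Gm3435 (0.76) and Bclaf1 (0.75). Banf1 had no close match, with 0.47 for Chmp2a and Rnpepl1 and 0.45 for Naa38.

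Shorter genes tended to show a larger change at 40 min over the whole table. Spearman's rho between gene length and the 40 min change was -0.54 over 9900 genes in CCNA-GFP cells, -0.59 over 10225 genes in CTCF-AID cells without IAA and -0.63 with IAA. Over the 10 members it was -0.01, -0.24 and -0.32, which describes these 10 genes only. Emd, at 6.86 kb, had the largest change among members at 40 min on the log2(TPM + 1) scale, and Banf1, at 2.53 kb, was the shortest. Lmnb2 and Sun2 were 17.0 and 18.5 kb long, below the median length of 22.6 kb.

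The threshold for IAA was an adjusted p under 0.1 and an absolute log2 fold change over 0.2 in limma. With the replicate as a block to pair the arms, Tmpo in asynchronous cells passed it. Without the block IAA changed no member past it at any stage. The same was true of all genes in mitosis (0%), at 20 min (0%) and at 40 min (0%), where 23, 31 and 85 of 10237 genes passed an unadjusted p under 0.05. At 50, 60, 90 and 120 min and in asynchronous cells 0.283%, 0.225%, 0.733%, 0.586% and 1.01% of all genes were called. With the replicate block, which pairs the arms, the shares were 0.987%, 1.01%, 1.71%, 1.43% and 2.43%, with 2 genes at 40 min, and Tmpo in asynchronous cells was the 1 member called. Among members, without the block an unadjusted p under 0.05 in limma was reached by Banf1 at 20 min (-0.37 ± 0.15) and by Tmpo in asynchronous cells, and with the block also by Tmpo at 120 min (-0.22 ± 0.10). For the lamins and Emd the IAA differences were -0.17 to 0.14 over the 8 stages, with SEs of 0.12 to 0.21. In mitosis the differences were -0.10 to 0.02 for all 10 members.

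Tmpo, whose product LAP2 binds lamins and Banf1, had the lowest adjusted p of the members. Asynchronous cells had 6.04, 4.91 and 6.83 TPM without IAA and 4.47, 4.11 and 4.96 TPM with IAA in replicates 1 to 3. Each replicate was lower with IAA, and across replicates the groups overlapped only between 4.91 and 4.96 TPM. The difference was -0.32 ± 0.13 (unadjusted p = 0.0216, adjusted p = 0.978, 1.41st percentile). Deviations from the group mean were shared by libraries of the same replicate number in the 2 arms, and with the replicate as a block the difference was -0.32 ± 0.08 with an adjusted p of 0.0215 in limma, so Tmpo was called, as were 2.43% of all genes. Over the alternatives its adjusted p ran from 0.00132 to 1. Tmpo was also lower with IAA in both replicates at 120 min (5.86 and 6.15 against 4.83 and 5.22 TPM), at -0.22 ± 0.16 (adjusted p = 1). The same held for each replicate in mitosis and at 20, 40 and 90 min, but not for each at 50 and 60 min.

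Early after release Tmpo differed by -0.12 (20 min), -0.10 (40 min), 0.06 (50 min) and -0.02 (60 min), each with an SE of 0.16. The mean IAA effect over 20 to 60 min less that in asynchronous cells was 0.28 ± 0.15 for Tmpo (99.2nd percentile, adjusted p = 1), and no member was called in that comparison, where 0.0195% of all genes were. Without the block no member had an unadjusted p under 0.05 there, and 117 genes did. With the block the unadjusted p of Tmpo was 0.00582 and its adjusted p 0.546, and with libraries scaled to the same total they were 0.000124 and 0.0354 in limma.

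**Figure D5:**
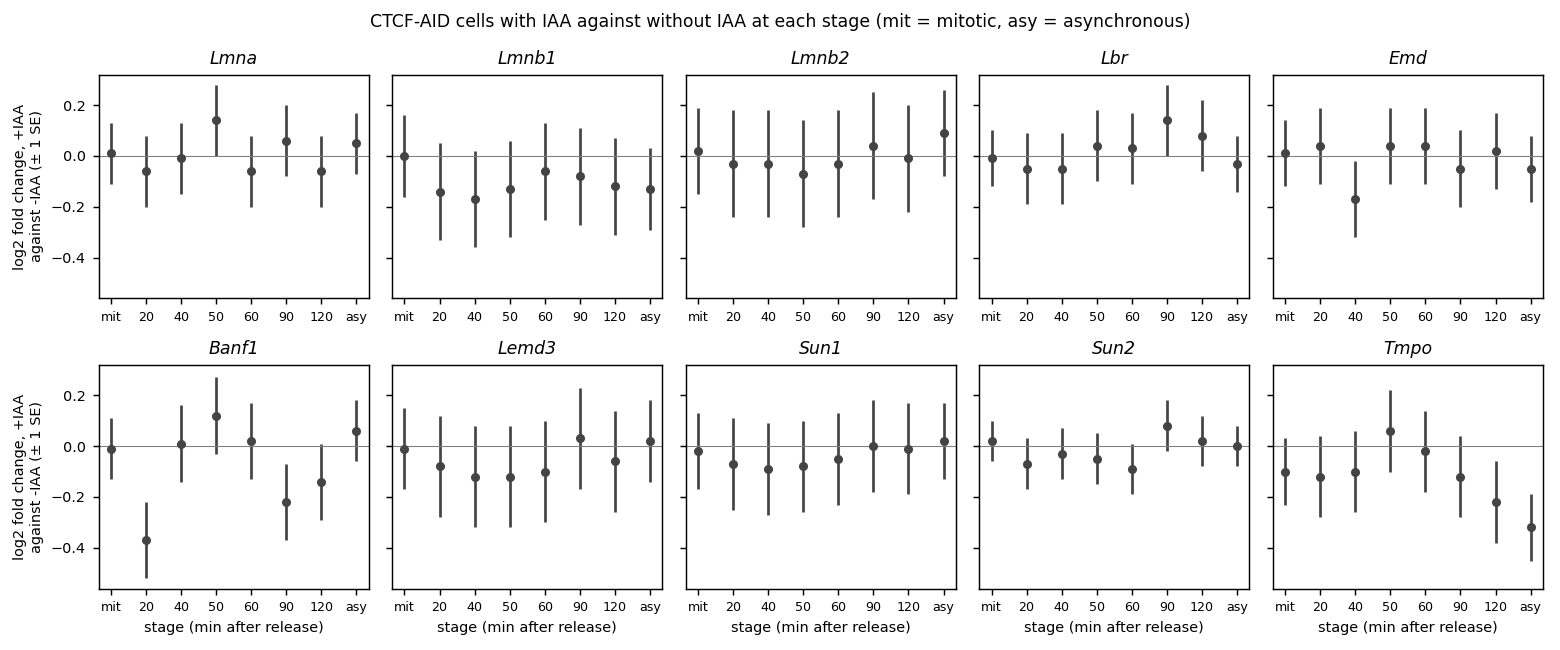
Log2 fold change of TPM + 1 with IAA against without IAA (vertical axis, ± 1 SE) at each stage (horizontal axis, equally spaced) for the 10 members in CTCF-AID cells. Points lie around 0, and the points furthest below are Banf1 at 20 min (-0.37) and Tmpo in asynchronous cells (-0.32).

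Beyond the 10 members, 42 other genes of the envelope and its assembly were looked for, of which 35 were listed in CCNA-GFP and 36 in CTCF-AID cells. At 60 min against mitosis 35 of 35 were called higher in CCNA-GFP cells, 36 of 36 without IAA and 34 of 36 with IAA, when 88.3%, 84.8% and 82.2% of all genes were. With libraries scaled to the same total, 13 were higher and 8 lower in CCNA-GFP cells, when 36.4% and 33.3% of all genes were. Without IAA 17 were then higher and 11 lower, and with IAA 18 and 13. As deposited, the medians of these other genes, 0.98, 0.83 and 0.85, were above those of all genes (0.79, 0.63 and 0.63), and the medians of the members were 0.85, 0.70 and 0.73. With a pseudocount of 0.1 the median of all CCNA-GFP genes was 1.30, and 3 of the 10 members were above it. Of other inner membrane proteins and torsins 8 of 8 were called higher in each arm, led by Tmem43 (LUMA), an emerin-binding protein, with 2.48 ± 0.17, 2.19 ± 0.14 and 2.44 ± 0.14. Tm7sf2, a sterol reductase like Lbr, was lowest in that group with 0.65 ± 0.10, 0.50 ± 0.13 and 0.59 ± 0.13. Of the ESCRT-III genes, which seal the new envelope, 9, 9 and 8 of 9 were called, from Chmp3 (0.58 ± 0.12) to Ist1 (1.55 ± 0.12) in CCNA-GFP and from Chmp2a (0.37 ± 0.12) to Chmp4b (1.08 ± 0.10) without IAA.

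The counts at 60 min in the smaller lists below stand against 88.3%, 84.8% and 82.2% of all genes called higher. Of the enzymes that farnesylate and process lamins 5 of 5, 5 of 5 and 4 of 5 were called higher. They ran from the farnesyltransferase subunit Fntb (0.33 ± 0.09 in CCNA-GFP, 0.18 ± 0.07 without IAA) to Icmt in CCNA-GFP (1.18 ± 0.11) and Rce1 without IAA (1.43 ± 0.13). Lipin and its phosphatase, which shape the membrane lipid supply, were called in 3 of 3, 4 of 4 and 4 of 4 genes, with Ctdnep1 highest at 1.79 ± 0.12, 1.43 ± 0.14 and 1.39 ± 0.14. Lowest there were Cnep1r1 in CCNA-GFP (0.91 ± 0.13) and Lpin2 in both CTCF-AID arms (0.51 ± 0.06). The LEM gene Ankle1 (1.15 ± 0.14, 1.35 ± 0.19 and 1.49 ± 0.19) led the other LEM and Banf1 kinase genes, called in 4 of 4 in each arm. Lowest there were Vrk1 in CCNA-GFP (0.57 ± 0.12) and Ankle2 in CTCF-AID cells (0.36 ± 0.10 without IAA). Syne4 was the only LINC partner listed, at 0.62 ± 0.12, 0.63 ± 0.14 and 0.56 ± 0.14. The chromatin tethers were called in 5 of 5 in each arm, with Hdac3 highest (1.29 ± 0.12, 0.96 ± 0.10 and 1.02 ± 0.10). The lowest tethers were Prr14 in CCNA-GFP (0.41 ± 0.11) and, in the CTCF-AID arms, Cbx1 (0.37 ± 0.13 without IAA, 0.32 ± 0.13 with it).

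At 120 min against asynchronous cells 24 of 35 of these genes were called higher in CCNA-GFP cells, 21 of 36 without IAA and 19 of 36 with IAA, against 63.4%, 51.0% and 47.2% of all genes. With libraries scaled to the same total, for which those shares do not hold, 8 were higher and 8 lower in CCNA-GFP cells. Without IAA 10 were then higher and 11 lower, and with IAA 11 and 11. Lpin1 was at 1.35 ± 0.13, 1.27 ± 0.11 and 1.31 ± 0.11, with Tmem43 highest of the inner membrane group in CCNA-GFP (1.53 ± 0.17) and Tor1b in both CTCF-AID arms (1.56 ± 0.16 and 1.57 ± 0.16). As deposited, the chromatin tether Prr14 was lower in CCNA-GFP cells (-0.25 ± 0.11, adjusted p = 0.045) and the LEM gene Lemd2 without IAA (-0.18 ± 0.07, adjusted p = 0.024). Without the replicate block IAA changed none of these genes past the threshold at any stage. With the block 1 of 36 was called at 90 min (1.71% of all genes), 2 at 120 min (1.43%) and 1 in asynchronous cells (2.43%), each lower with IAA. They were Cnep1r1, a lipin phosphatase subunit (-0.38 ± 0.10 at 90 min and -0.39 ± 0.10 at 120 min, limma adjusted p = 0.051 and 0.054), and Fnta, a farnesyltransferase subunit (-0.33 ± 0.08 at 120 min and -0.28 ± 0.06 in asynchronous cells, adjusted p = 0.029 and 0.016).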

How the data were processed

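The data are 55 RNA-seq libraries of mouse ES cells, stranded, read from both ends and depleted of ribosomal RNA. By the methods of the study, alignment was by STAR to mm10 and quantification by RSEM, against Gencode vM12 extended by a pre-mRNA form per gene. TPM of that form were deposited by the authors for genes above 0.5 TPM in asynchronous cells or at least 2 post-mitotic samples. Low values of a library are whole multiples of 0.01 TPM times a factor of 1.84 to 3.81, which the sources used here do not name. TPM keep no counts, so the DESeq2 test of the study was not run and the precision rests on replicates, which the methods call independent.

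limma 3.58.1 in R 4.3.3 (lmFit, eBayes with a trend) was run on log2(TPM + 1) over all genes, with Benjamini-Hochberg adjustment. Fold changes are on that scale, which understates the change of low genes such as Lmna and Sun2. Stages were compared with the replicate number as a block at an adjusted p under 0.05, and IAA without a block at 0.1 and an absolute log2 fold change over 0.2. Deviations of libraries of equal number correlated above 0.1 between each stage and mitosis in 15 of 15 pairs in CCNA-GFP (0.14 to 0.783) and 30 of 30 in CTCF-AID (0.134 to 0.806), in the later comparisons in 6 of 6 (0.169 to 0.642) and 12 of 12 (0.40 to 0.668), and between arms in 18 of 18 (0.513 to 0.884), so the numbers were taken to pair the libraries compared. Over any 2 groups of a table it was 44 of 49 (lowest -0.112) and 197 of 214 (lowest -0.049). Replicates shared at most 0.313% identical values, with Spearman's rho of 0.918 to 0.984 over 36 pairs. On simulated data, the 60 min comparisons recovered 98% (CCNA-GFP), 99.5% (CTCF-AID without IAA) and 86% (IAA) of 200 genes given a log2 change of 1. Of the calls 3.45%, 5.24% and 4.97% were false. Every gene was simulated with independent noise around 1 mean, without replicate effects and with no other genes changed, unlike these data. Changes smaller than 1, such as the IAA differences of members, were not simulated, so their recovery is unknown.

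The headers of the asynchronous CTCF-AID libraries are garbled, and those columns were matched to samples by title. The members and lists were chosen with earlier results of these data known. All members are named, the other envelope genes by the highest and lowest fold change in each list, and like genes as the 3 with the highest mean r among genes of at least 1 TPM in both tables, of which 1 is not reported here. Positions are from Gencode vM21 and promoters from RefSeq on GRCm38.p6. Alternatives were a pseudocount of 0.1, a mean of at least 1 TPM, same-total scaling, division by the factor, each replicate left out and the block added or removed. Python 3.11.15 was used with scipy 1.17.1, pandas 2.3.3, numpy 2.4.6 and matplotlib 3.10.9.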

Additional observations from a re-analysis of the deposited data

Results flagged for a closer look

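Lmnb2 was on opposite sides of 0 in the 2 lines in each replicate of 3 comparisons. The difference was not tested, because whether the 2 tables share a scale is not known here. At 90 min against mitosis the mean change within replicates was 0.47 on the log2 scale in CCNA-GFP cells (2 of 2 higher) and -0.19 in CTCF-AID cells without IAA (2 of 2 lower), 0.66 apart. At 120 min against mitosis it was 0.25 and -0.23, 0.48 apart, and at 120 min against asynchronous cells 0.10 and -0.23, 0.33 apart, but there replicate 2 without IAA read 1.73 against 1.74 TPM, which is less than the step between values in those libraries. In mean TPM over all libraries of a group, Lmnb2 at 120 min was below asynchronous cells in both lines. It was 0.849-fold in CCNA-GFP cells and 0.603-fold without IAA. With 2 replicates a line, 3 of the members' comparisons met this criterion, all of them for Lmnb2. With libraries scaled to the same total the opposition does not hold, since Lmnb2 in CCNA-GFP cells is then at -0.49 (90 min) and -0.56 (120 min) against mitosis and at -0.36 at 120 min against asynchronous cells, below 0 as in CTCF-AID cells. No group held the 4 samples needed to look for a sample far from the others.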

How the results depend on the processing

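A pseudocount of 0.1 or a mean of at least 1 TPM, which leaves out Lmna and Sun2, moved by over 1.5 times no count of members called higher (lower, from 60 to 120 min). With the latter, members lower at 120 min than in asynchronous cells with IAA went from 2 to 1. Library scaling decided most counts, and the cause was not tested. Same-total scaling removes a change shared by most genes by construction. Scaled to the same total, 23.7%, 36.4%, 31.8%, 28.7% and 24.8% of all CCNA-GFP genes were higher than mitosis (40, 60, 90, 120 min, asynchronous). Lower were 31.3%, 33.3%, 26.2%, 23.5% and 20.3%. With libraries scaled to the same total, members called higher than mitosis were 0, 1, 2, 2 and 3 in CCNA-GFP cells (40, 60, 90, 120 min, asynchronous), 2, 2, 4, 2 and 2 without IAA (40, 50, 60, 90, 120 min) and 2, 2, 3, 2 and 2 with IAA, while 2, 3, 2, 3 and 3, then 6, 3, 3, 4 and 4, and 7, 4, 3, 3 and 5 were called lower. Against asynchronous cells 2, 3 and 2 were then higher at 60 min and 2, 2 and 1 at 120 min, 3 and 3 were lower at 120 than at 60 min in the CTCF-AID arms, and 1 was called for IAA in asynchronous cells and 1 early against asynchronous. Divided by their factor, 2 members in CCNA-GFP cells were higher than asynchronous at 60 and 2 at 120 min, 1 and 1 at 120 min in the CTCF-AID arms, 9 and 8 were higher in asynchronous than mitotic CTCF-AID cells, and 3 at 120 min with IAA.

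Same-total scaling turned the direction of 107 of 390 log2 fold changes of members, counting those called before or after. Against mitosis, in CCNA-GFP cells, they became Lmnb1 -0.12, Lmnb2 -0.45, Banf1 -0.02, Lemd3 -0.07, Sun1 -0.33 and Tmpo -0.05 at 40 min, then Lmnb2 -0.50, Lbr -0.12, Emd -0.09, Banf1 -0.14, Sun1 -0.35, Sun2 -0.12 and Tmpo -0.15 at 60 min. Later stages gave Lmnb2 -0.49, Lbr -0.06, Banf1 -0.00, Sun1 -0.21, Sun2 -0.07 and Tmpo -0.34 at 90 min, then Lmnb2 -0.56, Lbr -0.19, Banf1 -0.10, Sun1 -0.21, Sun2 -0.17 and Tmpo -0.27 at 120 min. Beyond these came Lmnb2 -0.20, Lemd3 -0.07 and Sun1 -0.23 in asynchronous cells. In CCNA-GFP cells against asynchronous cells they became Lmnb1 -0.29, Lmnb2 -0.30, Lbr -0.52, Sun1 -0.12, Sun2 -0.19 and Tmpo -0.36 at 60 min, then Lmnb1 -0.21 and Lmnb2 -0.36 at 120 min. Against mitosis, in CTCF-AID cells without IAA, they became Lmnb1 -0.17, Lbr -0.29, Lemd3 -0.15, Sun1 -0.48 and Tmpo -0.19 at 40 min, then Lmnb2 -0.59, Lbr -0.09, Banf1 -0.01, Lemd3 -0.00, Sun1 -0.47 and Tmpo -0.24 at 50 min. Later stages gave Lmnb2 -0.46, Lbr -0.08, Banf1 -0.07, Sun1 -0.30 and Tmpo -0.33 at 60 min, then Lbr -0.20, Sun1 -0.21, Sun2 -0.04 and Tmpo -0.21 at 90 min. Beyond these came Lmnb1 -0.01, Lbr -0.39, Sun1 -0.24 and Tmpo -0.16 at 120 min. In CTCF-AID cells without IAA against asynchronous cells they became Lmnb1 -0.14, Lmnb2 -0.44, Lbr -0.35, Banf1 -0.08, Sun1 -0.01, Sun2 -0.24 and Tmpo -0.42 at 60 min, then Lmnb1 -0.30 and Tmpo -0.24 at 120 min. From 60 to 120 min in CTCF-AID cells without IAA they became Emd 0.27, Sun1 0.07 and Tmpo 0.18. Against mitosis, in CTCF-AID cells with IAA, they became Lmnb1 -0.30, Lbr -0.29, Lemd3 -0.24, Sun2 -0.11 and Tmpo -0.15 at 40 min, then Lmnb1 -0.16, Lbr -0.09, Lemd3 -0.14, Sun1 -0.57, Sun2 -0.02 and Tmpo -0.12 at 50 min. Later stages gave Lmnb2 -0.51, Lbr -0.06, Banf1 -0.05, Sun1 -0.34, Sun2 -0.07 and Tmpo -0.25 at 60 min, then Lmnb1 -0.07, Lbr -0.07, Banf1 -0.03, Sun1 -0.21 and Tmpo -0.24 at 90 min. Beyond these came Lmnb1 -0.14, Lbr -0.32, Banf1 -0.11, Sun1 -0.24 and Tmpo -0.28 at 120 min, then Tmpo -0.17 in asynchronous cells. In CTCF-AID cells with IAA against asynchronous cells they became Lmnb1 -0.03, Lmnb2 -0.54, Lbr -0.27, Banf1 -0.10, Sun1 -0.05 and Tmpo -0.08 at 60 min, then Lmnb1 -0.26 at 120 min. Division by the factor gave Tmpo -0.06 at 60 min against asynchronous in CCNA-GFP cells, and Lmnb2 at 120 min with IAA against mitosis ranged from -0.43 to 0.01 as each replicate was left out.

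With no replicate block the counts were 1 at 40 min, 4 in asynchronous cells and 4 at 60 min against asynchronous in CCNA-GFP, 3 at 40, 3 at 120 min and 2 in asynchronous cells without IAA, 2 at 120 min with IAA, 3 and 3 lower from 60 to 120 min, and 1 and 1 at 120 min against asynchronous. The replicate block added 1 member for IAA, Tmpo in asynchronous cells, and changed no other IAA call of a member.

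Leaving out a replicate gave, in CCNA-GFP cells, 1 to 4 members at 40 min, 4 to 8 in asynchronous cells, 0 to 1 lower from 60 to 120 min, and 4 to 8 and 2 to 4 at 60 and 120 min against asynchronous. Without IAA it gave 4 to 9 at 90 min, 2 to 7 at 120 min, 2 to 5 in asynchronous cells and 1 to 5 at 120 min against asynchronous. With IAA it gave 4 to 9 at 90 min, 1 to 7 at 120 min, 2 to 5 in asynchronous cells, 3 to 7 lower from 60 to 120 min and 1 to 5 at 120 min against asynchronous. TPM hold no depth, and most stages have 2 libraries.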
